A study of Mus musculus with 12 samples.

Results

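Digestive genes of the pancreatic acinar cell were read in whole fetal livers. They comprised 9 genes of 30743 in the authors' deposited table, found there by symbol: Prss1, Try5, Try10, Ctrb1, Cpa1, Cpb1, Cel, Clps and Rbpjl. The 9 genes were selected on the fold changes and p-values of the authors' own comparison of the diets in this table, and those values were not used here. All 9 were present and all 9 had reads, as had 19652 of the 30743 genes. Since they were selected on fold changes from the same table, having reads is no result about the 9. The study asked how maternal high-fat diet (HFD) and obesity shape blood formation in the fetal liver, and RNA-seq was made from 6 control and 6 HFD livers. All were whole livers of male C57BL/6J fetuses at 15 ± 0.5 dpc (days post coitum). Control dams ate a chow with 13.5 kcal% fat and HFD dams a diet with 60 kcal% fat, each for 12 to 14 weeks. The labels do not tie fetuses to litters.

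The values below are 1 mean per gene over all 12 livers, the authors' average log2 CPM. CPM are read counts scaled to a common library size. The average was taken as the log2 of a mean CPM, which the read estimates below assume. No value of a single liver and no mean of a single diet was used, so none of these values has an SD, no difference between diets was tested, and which livers carried the reads is not known from them. In bulk RNA, a few cells of a type and little RNA per cell cannot be told apart.

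Acinar cells of the exocrine pancreas make and store digestive enzymes, most of them as inactive zymogens, and release them into the gut, where trypsin activates the others. In these cells the PTF1 complex, in which Rbpjl joins Ptf1a, binds a paired site of an E box and a TGGGAA box near the genes of the enzymes. The liver and the pancreas arise from neighbouring endoderm, and the fetal liver of this age is filled with blood-forming cells.

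Levels of the 9 genes spanned a wide range, and they fell into a higher group of 4 and a lower group of 5. Ctrb1, the chymotrypsinogen B gene, was highest at an average log2 CPM of 3.64, or 12.5 CPM. Cpa1, a carboxypeptidase that also marks the tip progenitors of the embryonic pancreas, followed at 3.01, or 8.04 CPM. Clps encodes colipase, the cofactor of pancreatic lipase, and had 1.32, or 2.49 CPM. Cel encodes a lipase activated by bile salts and had 0.85, or 1.80 CPM. These 4 genes lay above 1 CPM. The other 5 lay under it, from -1.45 for Cpb1, a carboxypeptidase of basic residues, to -1.98 for the trypsin gene Try5. Between them stood the trypsin gene Try10 at -1.69, the transcription factor gene Rbpjl at -1.81 and the trypsin gene Prss1 at -1.81. The median of the 9 was -1.45, against 0.20 over the 19652 genes with reads. Above 1 CPM were 4 of the 9, against 51.8% of all genes with reads. In the order of those 19652 genes, Ctrb1 stood at percentile 73.7, Cel at 55.4, Cpb1 at 32.7 and Try5 at 25.3.

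**Figure D1:**
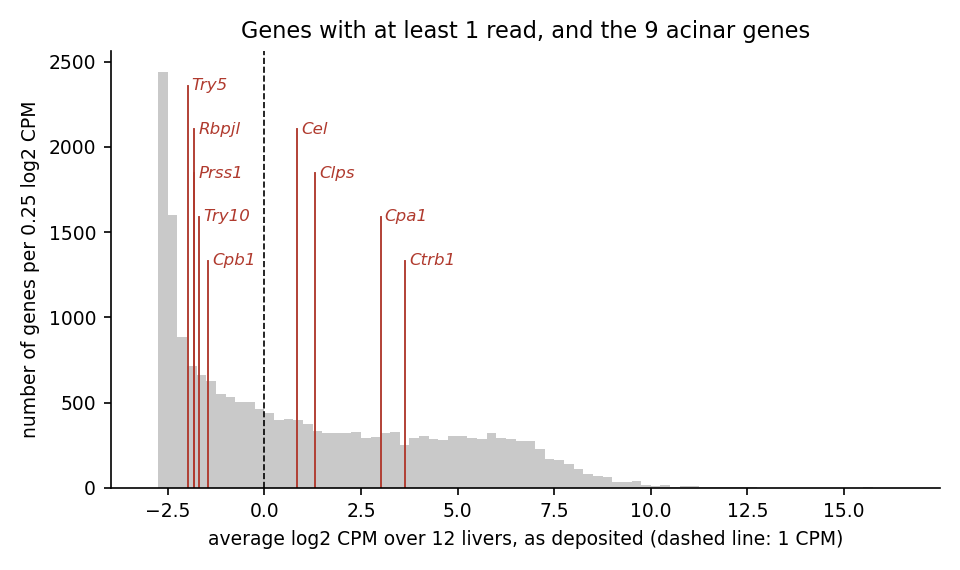
Number of genes (vertical axis, per 0.25 log2 CPM) by average log2 CPM over 12 livers (horizontal axis) for the 19652 genes with at least 1 read, with a red line at each of the 9 acinar genes and a dashed line at 1 CPM. Line heights only separate the names, and the lines of Rbpjl and Prss1 coincide at -1.81. The 4 genes right of the dashed line are Cel, Clps, Cpa1 and Ctrb1, and the other 5 lie in the crowded low end of the distribution.

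These means rest on few reads in the lower group. The 11091 genes without reads share the value -2.71, and the 1267 genes with a single read lie just above it, which gives the worth of 1 read (a median of 0.00634 CPM). On that scale Ctrb1 had an estimated 1947 reads over the 12 libraries together (95% exact Poisson interval 1861 to 2035) and Cpa1 had 1244 (1176 to 1315). Clps had 369 reads (332 to 409) and Cel had 259 (228 to 293). Cpb1 had 34 reads (23.5 to 47.5), Try10 had 25 (16.2 to 36.9) and Try5 had 16 (9.15 to 26.0). Rbpjl and Prss1 had 21 each (13.0 to 32.1). Spread evenly, the reads of Try5 would come to 1.33 per library and those of Cpb1 to 2.82. Ctrb1 and Cpa1 together held 81.1% of the 3936 reads of the 9 genes, and the lower 5 together held 2.96%, or 117 reads. The intervals cover counting error only, and reads of PCR-amplified libraries are not independent molecules. The estimate is less exact for a gene whose reads lie in few of the libraries.

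Level per length set the order of the genes. Per kilobase of the longest coding transcript (GENCODE M21), Ctrb1 stood at 14.1 CPM after subtraction of the value without reads (counting interval 13.5 to 14.7), 2.82 times Cpa1 at 4.98 (4.71 to 5.27). Clps, with a transcript of 611 bases, came close behind Cpa1 at 3.83 (3.45 to 4.24). Cel stood at 0.797 (0.703 to 0.900), and the counting intervals of these 4 genes did not overlap. The 3 trypsin genes followed, with 0.183 for Try10, 0.164 for Prss1 and 0.126 for Try5. Cpb1 had 0.0791 and Rbpjl 0.0539, the lowest of the 9. Among these last 5 genes each counting interval overlapped that of the next, so the order of neighbours is not resolved at this depth. Some genes farther apart were separate. The interval of Try10 (0.119 to 0.271) lay above those of Cpb1 (0.0547 to 0.110) and Rbpjl (0.0333 to 0.0823). That of Prss1 (0.102 to 0.251) lay above that of Rbpjl. Others overlapped, namely Try10 with Try5 (0.0722 to 0.205), Prss1 with Cpb1, and Try5 with Rbpjl. Per kilobase, Ctrb1 stood 261 times above Rbpjl; per kilobase of all exons summed, the values were 14.1 and 0.0231. Likewise Ctrb1 stood 85.8 times above Prss1. The values of Prss1, Try5 and Try10 are uncertain beyond counting error, since these genes share sequence with other genes, as given below. The 2 carboxypeptidases lay far apart, with Cpa1 63.0 times Cpb1 per kilobase.

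**Figure D2:**
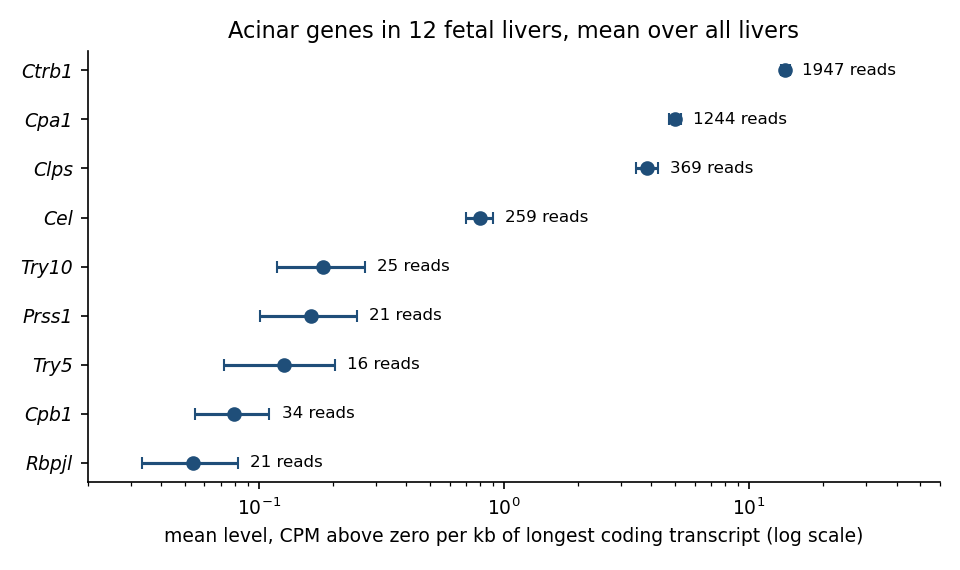
Mean level of each gene over 12 livers in CPM above the value without reads per kilobase of its longest coding transcript (horizontal log axis), with 95% exact Poisson intervals of the pooled reads as bars and the estimated reads printed beside each point. The points run from 14.1 for Ctrb1 to 0.0539 for Rbpjl, with separate intervals for the upper 4 genes and overlapping neighbours among the lower 5.

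The protease genes are trypsin genes, a chymotrypsinogen gene and carboxypeptidase genes. Ctrb1 lies on chromosome 8 of GRCm38 (the build of mm10) at chr8:111686519-111691010 on the minus strand. Its coding sequence was 62.1% identical to that of Prss1 and 62.7% to that of Ctrl, a chymotrypsin-like protease. Cpa1 lies at chr6:30639218-30645363 on the plus strand and Cpb1 at chr3:20248264-20275733 on the minus strand, with 56.5% identity of their coding sequences. The lipid genes Cel, at chr2:28555795-28563403, and Clps, at chr17:28558149-28560766, both lie on the minus strand, and Rbpjl lies at chr2:164403141-164415448 on the plus strand.

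The 3 trypsin genes sit together on chromosome 6, in the stretch where trypsinogen genes are interspersed in the T-cell receptor beta locus. Prss1 lies at chr6:41458932-41463786 and Try10 at chr6:41354105-41357914, both on the plus strand, and Try5 at chr6:41311233-41316841 on the minus strand. They are shown as sequences because their reads are hard to tell apart. The first stretch is coding bases 61 to 135 of each gene, in exon 2 of 5, which hold the codons at which trypsinogen is cut to become active. Capitals mark the 4 positions at which the 3 genes are not all alike.
Prss1, chr6:41461201-41461275: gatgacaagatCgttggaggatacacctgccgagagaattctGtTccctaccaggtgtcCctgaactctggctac
Try5, chr6:41313414-41313488: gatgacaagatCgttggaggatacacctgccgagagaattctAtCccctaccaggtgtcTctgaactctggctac
Try10, chr6:41355472-41355546: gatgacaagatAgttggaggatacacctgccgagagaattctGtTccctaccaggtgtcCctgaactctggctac

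Within this stretch Prss1 and Try10 differed at 1 base, Prss1 and Try5 at 3, and Try5 and Try10 at 4. The longest run that all 3 genes share was 68 bases, coding bases 121 to 188, also in exon 2. It lies at chr6:41461261-41461328 in Prss1, chr6:41313361-41313428 in Try5 and chr6:41355532-41355599 in Try10.
Prss1, Try5 and Try10: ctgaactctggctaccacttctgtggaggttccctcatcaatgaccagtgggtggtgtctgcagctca

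The same run stood in transcripts of 5 genes in all, with Gm5771 and Try4 as the others. Over the whole coding sequence of 738 bases, Try5 and Try10 were 93.5% identical, Try10 and Prss1 92.4%, and Try5 and Prss1 92.3%. Trypsin genes outside the 9 were closer still, with 98.0% identity between Gm5771 and Prss1 and 97.4% between Try4 and Try5.

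Sharing of sequence set the trypsin genes apart from the other members. Every window of 50 bases in a member's longest coding transcript was searched in the transcripts of all other genes, on both strands. Of the windows of Prss1, 54.9% stood in another gene, most often in Gm5771. For Try5 the share was 53.9%, most often in Try4, and for Try10 it was 40.8%, most often in Gm5409. With windows of 100 bases the shares fell to 21.8% for Prss1, 25.6% for Try5 and 11.6% for Try10. The windows of Ctrb1, Cpa1, Clps and Cel stood in no other gene at 36, 50 or 100 bases. Rbpjl had 0.997% at 50 bases, all of it in Matn4, which lies beside it, and Cpb1 had none at that length. The read length and the handling of reads with several matches are not given in the sources used here, so the separate values of Prss1, Try5 and Try10 are uncertain. The 8 trypsin genes searched (these 3 with Try4, Prss2, Prss3, Gm5771 and 2210010C04Rik) had 116 reads together, from 3 in Gm5771 to 25 in Try10 and Prss2.

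**Figure D3:**
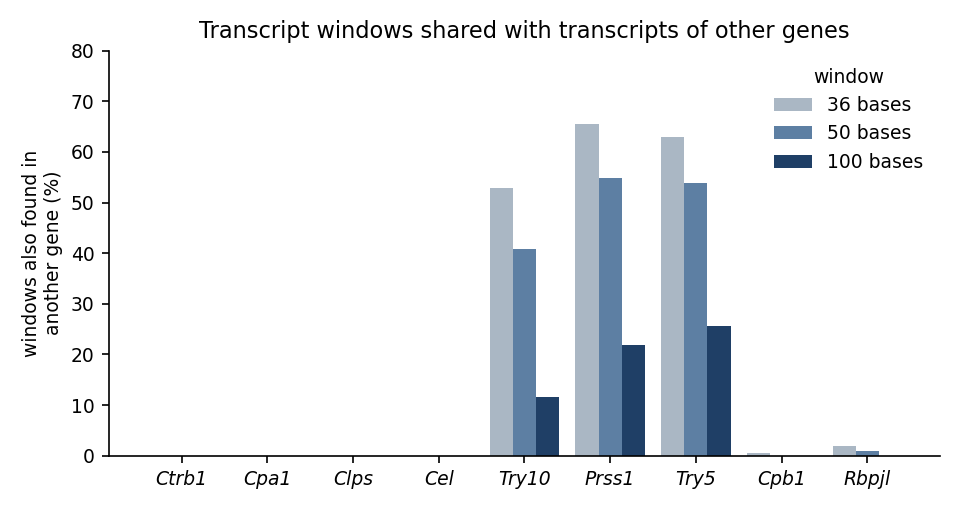
Share of the windows of each gene's longest coding transcript that also occur in transcripts of another gene (vertical axis, percent), for windows of 36, 50 and 100 bases (light to dark bars), with genes ordered by level per kilobase. Prss1, Try5 and Try10 reach 52.8 to 65.6% at 36 bases, while the other 6 genes stay at 0 to 1.86%.

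Promoters of 6 of the 9 genes (Cel, Rbpjl, Cpb1, Cpa1, Prss1 and Ctrb1) matched the RefSeq promoter table of GRCm38.p6, which holds 250 bases before to 50 after each start. Both strands were searched for the E box CACCTG and, separately, for the box TTCCCA, which on the opposite strand reads as the TGGGAA named above. The E box stood in 4 of the 6 promoters and in 20.2% of all 32851 promoters. The other box stood in 5 of the 6 and in 25.6% of all. Cel, Rbpjl and Prss1 held both, as did 5.27% of all promoters. In each of these 3 promoters a pair lay at most 16 bases apart, which held for 1.00% of all promoters, a spacing looked at after the sequences were seen. The limit of 16 is the widest spacing among these 3, so that they meet it follows from the limit. The stretches around those pairs are shown, since Rbpjl is itself a subunit of the PTF1 complex named above. Whether that complex binds boxes at these spacings was not tested. The stretches lie wholly before the start and are written in the direction of the gene, with both boxes in capitals.
Cel, chr2:28563455-28563498, minus strand: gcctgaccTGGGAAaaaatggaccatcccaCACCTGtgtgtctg
Rbpjl, chr2:164403082-164403125, plus strand: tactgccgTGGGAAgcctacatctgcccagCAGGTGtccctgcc
Prss1, chr6:41458809-41458847, plus strand: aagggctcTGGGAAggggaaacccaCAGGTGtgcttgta

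In Cel and Rbpjl 16 bases lay between the boxes, and in Prss1 11. TGGGAA read in the direction of the gene in all 3, while the E box read CACCTG in Cel and CAGGTG, its reverse complement, in the other two. Cel held 4 E boxes in its promoter, the most of the 6. Cpa1 and Ctrb1, the members with the most reads, held TTCCCA without CACCTG, and Cpb1 held CACCTG without TTCCCA. Only these exact sequences were searched, so other forms of either box would be missed. A match is a description of letters, and binding was not measured here.

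Other acinar genes were read at very different levels too. Of a list of 49, 45 were in the table, 35 had reads, 10 were listed at 0 and 9 lay above 1 CPM, with a median log2 CPM of -1.72 over those with reads. Over all 30743 genes, 19652 had reads. Of the 35, 23 had from 1 to 39 reads, against 34.3% of all genes with reads that had under 40. The 5 highest were Pnliprp1 (average log2 CPM 7.13), a lipase-related protein, Spink3 (6.30), a trypsin inhibitor, Gata6 (4.38), an endodermal transcription factor, Cela1 (3.78), an elastase, and Pnliprp2 (3.26), a lipase. Pnliprp1 and Spink3 held 77.4% of the 44562 reads of the list. Per kilobase Pnliprp1 stood 6.14 times above Ctrb1, and Ctrb1 stood 1.15 times above Cela1 (12.2, counting interval 11.7 to 12.8). The lowest with reads were Cuzd1 with 1 read, Pnlip and Reg3g with 2, and Reg3b and Gm5771 with 3. Pnlip is the pancreatic lipase that colipase serves, and its 2 reads came to 0.00846 CPM per kilobase (counting interval 0.00102 to 0.0306), where Clps stood at 3.83. The trypsinogen gene Prss2 stood at 0.194 CPM per kilobase (0.125 to 0.286) where Prss1 stood at 0.164, and these counting intervals overlapped. Per kilobase of summed exons Cela1 stood at 5.88, where Ctrb1 stood at 14.1.

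The regulators Rbpjl, Ptf1a and Rbpj all had low values. Per kilobase, Rbpjl stood at 0.0539 CPM (0.0333 to 0.0823), Ptf1a at 0.0461 (0.0230 to 0.0826), and Rbpj, the broadly used relative of Rbpjl that joins Notch signals, at 0.0640 (0.0482 to 0.0833). The 3 counting intervals overlapped, and per kilobase of summed exons the values were 0.0231, 0.0461 and 0.0275. Ptf1a rested on 11 reads, Rbpjl on 21 and Rbpj on 55. Rbpj has 5 curated RefSeq transcripts, where Rbpjl and Ptf1a have 1 each, and ribosomal protein genes with more than 1 had lower values in this table, so the 55 reads of Rbpj are uncertain. The other listed acinar regulators varied. Bhlha15, a factor of secretory cells, had 877 reads, and Gata6 had 3254. Nr5a2, a nuclear receptor that hepatocytes use as well, had 517. Gata4 had 35, or 0.0647 CPM per kilobase (0.0451 to 0.0900). Gata4 and Nr5a2 have 2 curated RefSeq transcripts each, so their reads are uncertain in the same way as those of Rbpj.

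Markers of other cell types stood beside these genes as follows, where 19652 of all 30743 genes had reads. Of 19 endocrine pancreas genes, 15 had reads and 3 lay above 1 CPM, among them Chga (807 reads) and Chgb (187), which encode granins of secretory granules. The insulin gene Ins2, which has 3 curated RefSeq transcripts, was listed at 0. Ins1 had 28 reads, and Gcg and Sst had 15 each, with 1 such transcript in each of these genes. All 8 duct genes had reads, led by Krt7 (1087), Krt19 (935) and Epcam (867), which bile ducts also use. All 8 intestinal genes had reads, led by Tff3 (3585), Fabp2 (2409) and Vil1 (612). Of 8 stomach genes, 7 had reads, none lay above 1 CPM and the list summed to 136 reads, of which Atp4a held 106. Of 5 salivary genes found, Amy1 had 517 reads and the other 4 were listed at 0. The part of such cells in the acinar reads was not tested.

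**Figure D4:**
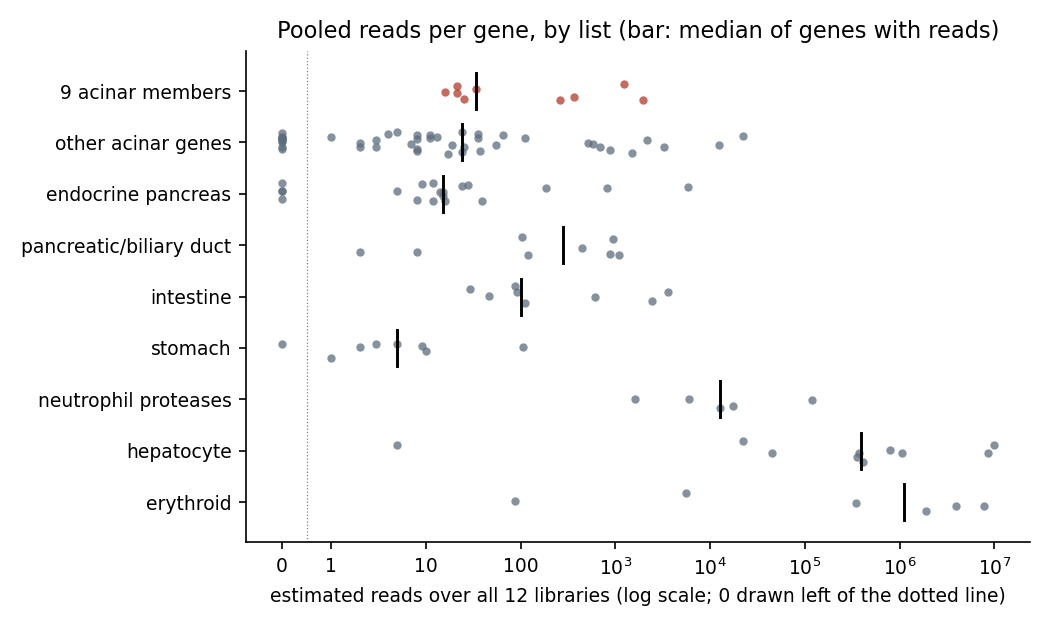
Estimated reads per gene over all 12 libraries (horizontal log axis, with genes listed at 0 drawn left of the dotted line) for the 9 acinar genes (red) and the genes of 8 other lists (grey), where a black bar is the median of the genes with reads. The acinar genes run from 16 to 1947 reads, the hepatocyte and erythroid lists reach 9981033 for Alb, and the stomach list stays at or under 106.

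The labelled tissue was checked against its markers, and the hepatocyte and erythroid lists had the highest medians of the lists. Of 10 hepatocyte genes 9 lay above 1 CPM, led by Alb (average log2 CPM 15.95), Afp (15.73) and Ahsg (12.73), and per kilobase Alb stood 2212 times above Ctrb1. Of 6 erythroid genes found 5 lay above 1 CPM, led by Hba-a2 (15.60), Hbb-b1 (14.60) and Slc4a1 (13.56). The neutrophil granule proteases, serine proteases of blood cells in the main, were all above 1 CPM, led by Mpo, a peroxidase (9.57), Elane (6.80) and Ctsg (6.34). Per kilobase, the serine proteases Elane, at 113 CPM, and Ctsg, at 81.0, stood above Ctrb1 at 14.1, while Prss57, of the same list, stood below it at 3.56 (counting interval 3.39 to 3.74).

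Low values in this table need care. Genes that every cell or every hepatocyte uses were also low or listed at 0, which was looked at after the values were seen. Rps25, Rps27a and Hnf4a were listed at 0, Ppia had 2 reads, Serpina1a 5 and the erythroid gene Alas2 87, while Gapdh had 796. Among 75 ribosomal protein genes, 4 were listed at 0. The 57 with 1 curated RefSeq transcript had a median of 3621 reads, and the 18 with more had 388. Of the 9 acinar genes Clps has 2 such transcripts and the others 1. How reads were assigned to genes is not given in the sources used here, and its part in the levels of the acinar genes was not tested. A gene listed at 0, such as Ctrc or Amy2a5, is therefore given as listed at 0 and no more. Likewise, the low values of Pnlip and of the trypsin genes are values of this table.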

How the data were processed

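RNA of 12 whole fetal livers (6 control, 6 HFD) was polyA-selected and sequenced. Per the labels and methods, the authors trimmed with cutadapt 1.2.1, mapped to mm10 by Subread 1.3.6-p1, took gene annotation from biomaRt and tested the effect of diet in edgeR; the counting step is not given in the sources used here. The authors deposited 1 table of 30743 genes with an average log2 CPM. Its other 9 columns repeat that average and hold the authors' fold changes, p-values and adjusted p-values with common and tagwise dispersions; they were not used. Values of single livers were not analysed, so the planned edgeR test of diet was not run.

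Here, pooled reads were estimated as CPM above the value without reads (0.152 CPM) divided by the median step of 1267 genes with a single read. The value without reads divided by the step gives a prior count of 2.00 per library and a mean effective library of 13136919 reads, 157643029 in all. Of 6481 genes with 1 to 34 reads, 99.4% lay within 0.25 of a whole number. Intervals are exact Poisson at 95%. Coding identity came from global alignment of GENCODE M21 coding sequences, in place of proteins. A gene under 40 reads was counted as low. Percentiles are over the 19652 genes with reads. Python 3.11.15, numpy 2.4.6, pandas 2.3.3, scipy 1.17.1, matplotlib 3.10.9 and Biopython 1.88 were used.

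The members and lists were chosen with earlier results of these data known. Named genes were all 9 members, the 5 highest and 5 lowest with reads of the acinar list and the 3 highest of each other list, apart from a listed gene that is not reported here. Relatives and partners of members (Ctrl, Try4, Prss2, Prss3, 2210010C04Rik, Gm5409, Ptf1a, Rbpj, Bhlha15, Nr5a2, Gata4), low markers (Ins1, Ins2, Gcg, Sst, Atp4a, Ctrc, Amy2a5, Alas2, Serpina1a), the neutrophil gene Prss57 and the genes every cell uses were named after their values were seen.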

Additional observations from a re-analysis of the deposited data

How the results depend on the processing

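The means carry no replicate spread, so a move is given as a value. The median of the 9 genes was -1.45 on the log2 CPM scale and -2.22 after subtraction of the value without reads. Their median percentile was 32.7 among genes with reads and 57.0 among all genes. Per kilobase of summed exons the order was the same, and without length 5 of the 9 changed place, all among the lower 5. The pooled reads, 3936, were 3879 and 3997 with the largest and smallest step and 3934 from a library size with a prior count of 2 (added after seeing the data). Assumed prior counts of 1 and 0.5 gave 1967 and 983, but the deposited values give 2.00. The median of the other acinar genes, -1.72, was -2.17 with genes listed at 0 and -1.94 without transcription factors. The median share of trypsin windows found in other genes, 53.9%, was 63.1% at 36 bases and 21.8% at 100 bases, lengths added after seeing the data. The count under 1 CPM, the trypsin identity and the promoters with both boxes kept their values of 5, 92.4% and 3.

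The second average column was not run, since it repeats the first. Diet alternatives and leaving out single livers were not run because no value of a single liver was used. No paired analysis was possible because of the same. Depth limits the lower 5 genes, of 16 to 34 reads over 12 libraries.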
